A study of Mus musculus with 18 samples.

Results

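The class I antigen presentation genes described here are 10 genes of the mouse cerebellum, taken by symbol from a table of 22783 genes: B2m, H2-K1, H2-D1, H2-T23, H2-T9, Tap1, Tap2, Tapbp, Psmb8 and Psmb9. All 10 were in the table and all 10 passed the filter on low values, which kept 13487 genes. Whole cerebellar RNA of FVB strain mice was sequenced for a study of cholecystokinin receptor signalling and Purkinje cells in spinocerebellar ataxia mice. The control genotype is Cck-/-, in which the labels give the cholecystokinin gene as deleted. The other is ATXN1[30Q]D776/Cck-/-, called transgenic below. It adds a human ataxin-1 transgene (the ATXN1 gene is mutated in spinocerebellar ataxia type 1) to that deletion. The labels thus give the Cck deletion for every group, controls included, and name no group with a normal Cck gene. For either genotype there were 3 libraries from mice of 5 weeks, 3 of 12 weeks and 3 of 28 weeks, which makes 18. The labels name no promoter for the transgene. Nothing in them ties a library to an animal of its own, so p-values here measure only the spread between libraries, which may be technical.

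Class I molecules show fragments of the proteins made inside a cell to T cells and natural killer cells. The proteasome cuts proteins into peptides, and cells exposed to interferon exchange its catalytic subunits for those of the immunoproteasome, among them Psmb8 and Psmb9. The transporter formed by Tap1 and Tap2 moves the peptides into the endoplasmic reticulum, where tapasin, the product of Tapbp, holds an empty class I molecule beside it until a peptide is bound. The class I molecule itself is a heavy chain paired with beta-2 microglobulin, the product of B2m. H2-K1 and H2-D1 encode classical heavy chains, while H2-T23, which encodes Qa-1, and H2-T9 belong to the nonclassical class I genes. In the brain, class I genes are active in microglia and endothelial cells and also in some neurons, where they are known for a part in shaping synapses.

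On the mouse assembly GRCm38, 9 of the 10 genes lie on chromosome 17, in the major histocompatibility complex, and B2m lies on chromosome 2 at chr2:122147687-122153082 in RefSeq. From the first position onwards, chromosome 17 holds Tapbp at chr17:33919478-33929290 and H2-K1 at chr17:33996012-34000619. Psmb9, Tap1, Psmb8 and Tap2 follow as neighbours, from chr17:34182030-34187330 for Psmb9 through chr17:34187556-34197225 for Tap1 and chr17:34198195-34201454 for Psmb8 to chr17:34204479-34216321 for Tap2. Psmb9 and Tap1 point away from each other with 225 bases between them. H2-D1 lies at chr17:35263094-35267497, H2-T23 at chr17:36029977-36032701, and H2-T9 has its place from the deposited table alone, at chr17:36038409-36042702.

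RefSeq promoter windows were available for 8 of the 10 genes, not for Tap2 and H2-T9. In the 200 bases before the start, 4 sets of letters were searched on both strands. A form of the site bound by NF-kappa-B, made of GGG, any 2 bases, TT, any 1 base and CC, was in the windows of B2m, H2-K1 and H2-D1, and in 3.39% of the 32851 windows of that length. AANNGAAA, a core of the interferon response element, was in the same 3 windows and that of H2-T23, against 17% of all windows. TGACG, the core of the X2 box bound by the regulators of class I and class II genes, was in 5 of the 8 (B2m, H2-K1, H2-D1, Tap1 and Psmb9), against 15.7%, and CCAAT, the Y box, in 6 of the 8, against 29.3%. The Tap1 and Psmb9 windows share most of their bases, so that their TGACG is 1 match read from both sides. The windows of the classical heavy chains and their partner B2m held all 4 motifs. Their stretches that hold the first pair of motifs are shown, with the letters of both motifs in capitals.
H2-K1: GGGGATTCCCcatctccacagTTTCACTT
H2-D1: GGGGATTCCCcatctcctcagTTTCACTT
B2m: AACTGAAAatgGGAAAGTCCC
Each runs 5′ to 3′ on the strand of its gene. H2-K1 has it on the minus strand at chr17:34000430-34000458, from 125 to 97 bases before the RefSeq start. H2-D1 has it on the plus strand at chr17:35262923-35262951, from 171 to 143 bases before the start. B2m has it on the plus strand at chr2:122147550-122147570, from 137 to 117 bases before the start. The motifs stand in the opposite order in B2m. Aligned with free ends, the H2-K1 and H2-D1 windows were identical at 138 of 154 aligned positions (89.6%), whereas B2m matched H2-D1 at 50.7%. A match of letters is a description of these windows and shows no binding.

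The values are FPKM, fragment counts scaled to transcript length and library size. Levels of different genes are set beside each other as a description. Those of the class I heavy chains may also depend on how FVB reads aligned to the genome of another strain, which was not tested. They summed to between 389248 and 441509 per library, and log2 values of libraries of 1 group correlated at 0.984 to 0.996 across genes. Read counts and depth are unknown. Cck itself was above 0 in every library, with 20.8 ± 4.51 FPKM (SD, n = 3) in Cck-/- and 98.1 ± 15.6 FPKM (SD, n = 3) in transgenic libraries at week 5. The week 12 means were 13.8 and 14.8, and those of week 28 4.97 and 6.51. The values do not show the deletion that the labels give, and the table does not say which part of the gene the fragments came from. The genotype comparison at week 5, and every comparison with the transgenic libraries of week 5, cannot be told apart from this difference in Cck. Mouse Atxn1 differed by 0.17 (log2, SE 0.15, limma adjusted p = 0.556) at week 5. RNA of the transgene itself was not analysed here. Of the 18 libraries, 7 had Xist under 1 FPKM and 11 had more. Of these 11, 3 also had at least 0.1 FPKM of each of 4 Y-linked genes (Ddx3y, Eif2s3y, Kdm5d and Uty): transgenic week 5 replicate 1, week 12 replicate 2 and week 28 replicate 1. The split was not the same in every group, and what gave 3 libraries both kinds of RNA was not tested. Transgenic week 28 replicate 3 had Xist with 0.280 FPKM of Ddx3y and 0.313 of Eif2s3y, but less than 0.1 of the other pair, and is not among the 3. Without these 3, counts of class I genes that rose from week 5 to week 28 were 9 and 9, as with them. The 14 Purkinje cell markers listed for the cerebellum, Calb1 and Pcp2 among them, summed to at least 1222 FPKM in every library.

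Levels of the 10 genes covered a wide range. B2m was the most abundant, with a median of 140.2 FPKM over the 18 libraries and a range from 85.2 to 244. H2-D1 followed with a median of 70.0 (57.4 to 94.3) and H2-K1 with 21.4 (10.6 to 43.5). Tapbp had a median of 12.0, H2-T23 8.69, H2-T9 6.96 and Tap2 5.01 FPKM. Psmb8 at 2.80, Psmb9 at 2.04 and Tap1 at 1.36 FPKM were the lowest. Over the 18 libraries, each gene's range overlapped that of its neighbour in this order, except for H2-D1 and H2-K1, which did not overlap. Because 1 was added to every FPKM before the logarithm, log2 changes of Tap1, Psmb9 and Psmb8 understate the change in their levels.

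**Figure D1:**
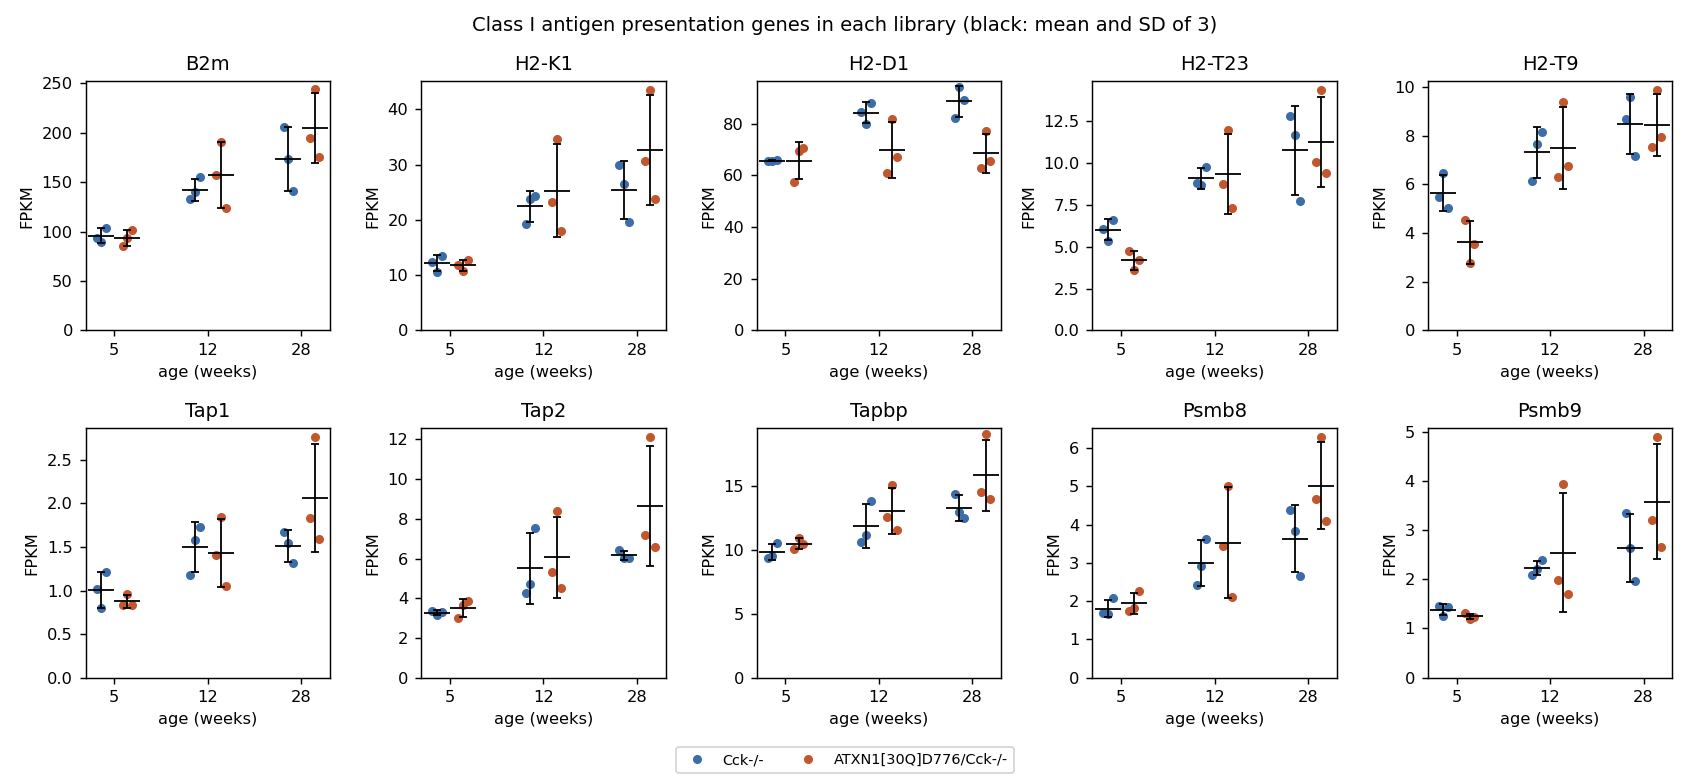
FPKM (vertical axes, from 0) of the 10 genes in each of the 18 libraries by age in weeks, Cck-/- in blue and transgenic in orange, with black bars for the mean and SD of 3 libraries. B2m and H2-K1 climb from week 5 to week 28 in both genotypes, while H2-D1 stays between 57.4 and 82.0 FPKM in every transgenic library.

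Between week 5 and week 28 the class I genes were higher in both genotypes. In Cck-/- cerebellum 9 of the 10 rose (limma, adjusted p under 0.05 over all 13487 genes), where 16% of all genes tested rose and 17.7% fell. Their median change was 0.65 on the log2 scale, beside a median of 0.00 over all genes. In transgenic cerebellum 9 of 10 also rose, where 17% of all genes rose and 19.9% fell, with a median change of 1.03 beside -0.01. The libraries of week 5 and week 28 did not overlap for 10 of 10 genes in Cck-/- and 9 of 10 in transgenic cerebellum, where they did not overlap for 47.5% and 49.8% of all genes. None fell in either. The gene that did not pass was Tap1 in Cck-/- and H2-D1 in transgenic cerebellum. Among week 5 libraries Tap1 reached 1 FPKM only in Cck-/- replicates 1 and 3, so it needed later libraries to pass the filter. Its transgenic rise adds no support to the count of 9. The 2 time courses share no library, but they were aligned and normalized together.

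B2m, the light chain common to all class I molecules, had 94.0, 89.4 and 104 FPKM in the 3 Cck-/- libraries of week 5, and 206, 174 and 141 in those of week 28. In transgenic libraries it had 85.2, 93.4 and 102 FPKM at week 5, and 195, 244 and 175 at week 28. No week 28 library of either genotype fell into the week 5 range. The change was 0.84 (log2, SE 0.16, adjusted p = 0.000936) in Cck-/- and 1.11 (SE 0.16, adjusted p = 0.000137) in transgenic cerebellum.

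H2-K1, a classical heavy chain, had 12.4, 10.6 and 13.4 FPKM in Cck-/- libraries at week 5 and 29.9, 26.4 and 19.7 at week 28. Transgenic libraries had 11.8, 10.7 and 12.7 FPKM at week 5 and 30.6, 43.5 and 23.8 at week 28. The week 28 values were spread more widely, and replicate 2 of the transgenic group was the highest of all 18. H2-K1 rose by 0.99 (SE 0.22, adjusted p = 0.00323) in Cck-/- and by 1.36 (SE 0.22, adjusted p = 0.00037) in transgenic libraries.

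H2-D1, the other classical heavy chain among the 10, rose in Cck-/- cerebellum and did not pass in transgenic cerebellum. Its Cck-/- values were 65.6, 65.6 and 65.9 FPKM at week 5, 84.6, 80.0 and 88.2 at week 12, and 82.3, 94.3 and 89.3 at week 28. Its transgenic values were 57.4, 69.3 and 70.6 FPKM at week 5, 60.8, 82.0 and 67.0 at week 12, and 62.8, 77.1 and 65.7 at week 28. The Cck-/- libraries of weeks 12 and 28 all lay above those of week 5, whereas the 3 transgenic ages overlapped. The change from week 5 to week 28 was 0.42 (SE 0.10, adjusted p = 0.00533) in Cck-/- and 0.06 (SE 0.10, adjusted p = 0.676) in transgenic libraries. The difference between these changes was -0.37 (SE 0.15) and did not pass the test of the interaction (adjusted p = 0.175), which 3.65% of all genes passed in either direction.

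The nonclassical genes rose in both genotypes as well. H2-T23 lay between 5.35 and 6.60 FPKM in the Cck-/- libraries of week 5 and at 10.7 ± 2.67 FPKM (SD, n = 3) in those of week 28. It went from 4.18 ± 0.559 to 11.3 ± 2.68 in transgenic libraries. The changes were 0.72 (SE 0.18, adjusted p = 0.00717) and 1.23 (SE 0.18, adjusted p = 0.000205). H2-T9 went from 5.67 ± 0.742 to 8.49 ± 1.24 FPKM in Cck-/- and from 3.62 ± 0.881 to 8.45 ± 1.27 in transgenic libraries, changes of 0.51 and 1.04 (SE 0.16 each). The Cck-/- call of H2-T9 was lost without replicate 1 or 3 of week 5 or replicate 1 or 2 of week 28 (adjusted p up to 0.093). The larger transgenic changes started from lower week 5 values, and the week 28 levels of the genotypes overlapped. Neither gene passed the test of the difference between the changes (adjusted p = 0.301 and 0.21).

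Of the genes of peptide transport and loading, Tap2 and Tapbp rose in both genotypes and Tap1 in transgenic cerebellum. Tap2 went from 3.28 ± 0.114 to 6.17 ± 0.233 FPKM (SD, n = 3) in Cck-/- and from 3.50 ± 0.437 to 8.63 ± 3.03 in transgenic libraries, changes of 0.75 and 1.06 (SE 0.21 each). Tapbp went from 9.81 ± 0.643 to 13.3 ± 0.994 FPKM and from 10.5 ± 0.445 to 15.8 ± 2.78, changes of 0.40 and 0.54 (SE 0.11 each), and all 4 of these passed. Tapbp in Cck-/- did not pass without replicate 1 of week 5 (adjusted p = 0.0515) or of week 28 (0.0543). Tap1 had 1.02, 0.796 and 1.21 FPKM in Cck-/- libraries at week 5 and 1.67, 1.55 and 1.31 at week 28, groups that did not overlap, with a change of 0.32 (SE 0.14, adjusted p = 0.0894). Its transgenic values were 0.828, 0.962 and 0.835 FPKM at week 5 and 1.83, 2.77 and 1.60 at week 28, a change of 0.69 (SE 0.14, adjusted p = 0.00178).

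Psmb8 and Psmb9, the inducible catalytic subunits, rose in both genotypes. Psmb8 went from 1.81 ± 0.227 to 3.64 ± 0.881 FPKM (SD, n = 3) in Cck-/- and from 1.94 ± 0.277 to 5.02 ± 1.14 in transgenic libraries, changes of 0.71 and 1.02 (SE 0.20 each). Psmb9 went from 1.38 ± 0.115 to 2.64 ± 0.691 FPKM and from 1.25 ± 0.0563 to 3.58 ± 1.17, changes of 0.60 and 1.00 (SE 0.20 each). The Cck-/- call of Psmb9 was lost without any 1 of the 3 libraries of week 5, without replicate 1 or 2 of week 28 and with no filter (adjusted p up to 0.118). That of Psmb8 was lost without replicate 1 of Cck-/- week 28 (0.0594), and its transgenic call without the 3 libraries lowest in choroid plexus genes (0.051).

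**Figure D2:**
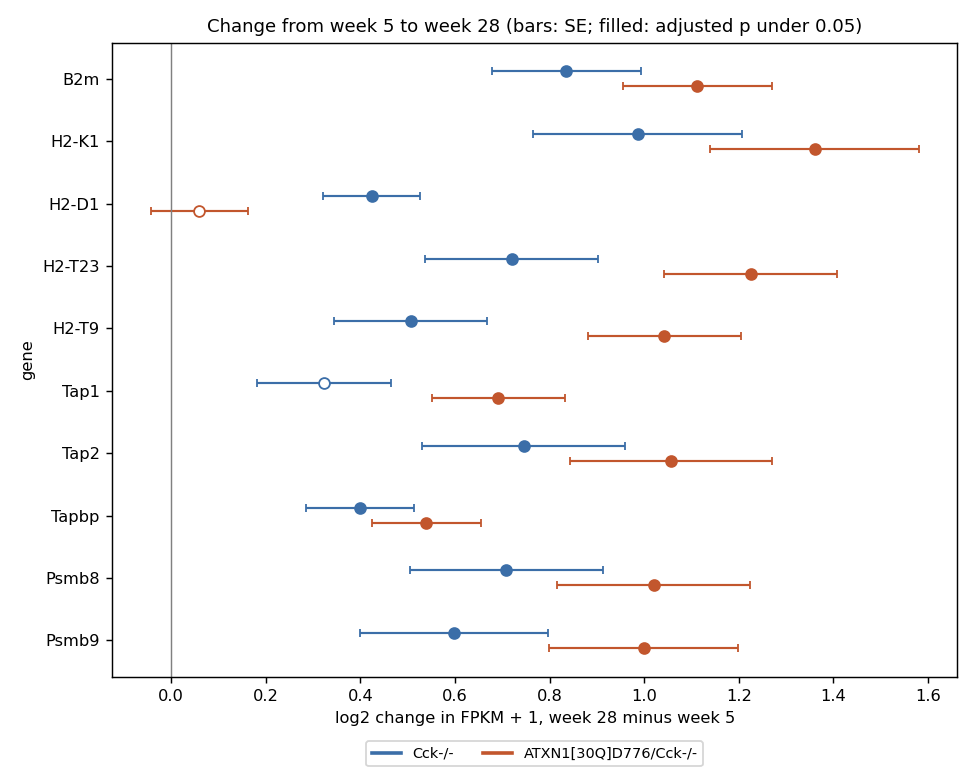
Log2 change in FPKM + 1 from week 5 to week 28 (horizontal axis) of the 10 genes, Cck-/- in blue and transgenic in orange, with bars for the SE and filled points for adjusted p under 0.05. In each genotype 9 of 10 points are filled. The open points are Tap1 at 0.32 in Cck-/- and H2-D1 at 0.06 in transgenic libraries.

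Fewer of the genes passed over the shorter intervals. In Cck-/- cerebellum 3 of 10 rose from week 5 to week 12, against 5.29% of all genes: B2m by 0.57 (SE 0.16, adjusted p = 0.0292), H2-K1 by 0.83 (SE 0.22, adjusted p = 0.0237) and H2-D1 by 0.35 (SE 0.10, adjusted p = 0.036). In transgenic cerebellum 4 of 10 rose, against 0.593% of all genes: B2m by 0.73 (adjusted p = 0.0377), H2-K1 by 1.00 (adjusted p = 0.0412), H2-T23 by 0.98 (adjusted p = 0.018) and H2-T9 by 0.88 (adjusted p = 0.0169). Neither count was stable. The Cck-/- count was 0 without replicate 1 or 2 of Cck-/- week 5 or without replicate 2 or 3 of Cck-/- week 12, and 1 without replicate 1 of Cck-/- week 12. The transgenic count was 0 without replicate 2 of transgenic week 5 or week 12, 0 when only the compared groups were fitted. It was 2 without any 1 of 8 other libraries, namely replicates 1 and 3 of week 5 in either genotype, replicate 2 of Cck-/- week 12 and week 28, and replicate 1 of transgenic week 12 and week 28. From week 12 to week 28, 0 of 10 passed in Cck-/- (9.65% of all genes did, in either direction; 0 of 10 had an unadjusted p under 0.05) and 0 of 10 in transgenic cerebellum (23.8% of all genes; 4 of 10 had an unadjusted p under 0.05, namely B2m, Psmb8, Tap1 and Tapbp).

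A pair of transgenic libraries stood high in these genes. Replicate 2 of transgenic week 12 and replicate 2 of transgenic week 28 had the highest values of their groups for all 10 genes. Without both, 10 of 10 rose from week 5 to week 28 in Cck-/- and 9 of 10 in transgenic libraries, and the transgenic comparison of weeks 5 and 12 had 0 of 10. Leaving out 1 library at a time, the transgenic count from week 5 to week 28 was 9 each time. The Cck-/- count lay between 5 and 10, with 5 without replicate 1 of Cck-/- week 28. In that library red blood cell markers summed to 2089 FPKM, against 631 and 359 in replicates 2 and 3. In Cck-/- libraries of week 5 that sum was 1064 to 1708. Markers of the leptomeninges summed to 209.5 against 110 and 126, and peripheral myeloid markers to 58.5 against 18.8 and 19.5. Microglial markers summed to 313.7 against 229.5 and 213. The part of this in the class I values was not tested.

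Markers of microglia also rose from week 5 to week 28, and in Cck-/- their counts by interval were unlike those of the class I genes. There, from week 5 to week 12, 0 of 19 markers and 8 of 10 class I genes had an unadjusted p under 0.05 (limma). From week 12 to week 28 it was 12 of 19 and 0 of 10. Over all 13487 genes, 3439 and 3542 had such a p in these intervals. In transgenic libraries 11 markers and 9 class I genes had it in the first interval, and 17 and 4 in the second. Whether the intervals differ between markers and class I genes was not tested. The Cck-/- class I estimates from week 12 to week 28 ran from 0.01 (Tap1) to 0.27 (B2m, SE 0.16). Of 19 microglial markers tested, 12 rose from week 5 to week 28 in Cck-/- and 18 in transgenic cerebellum, and none fell. Of all genes, 16% and 17% rose and 17.7% and 19.9% fell. Ctss, a lysosomal protease of microglia, went from 22.5 ± 2.00 to 43.4 ± 8.33 FPKM (SD, n = 3) in Cck-/- and from 22.6 ± 3.14 to 73.0 ± 16.0 in transgenic libraries. The summed level of the 20 markers ran from 149 to 172 FPKM at week 5 and from 213 to 313.7 at week 28 in Cck-/-, and from 149 to 198 and from 327 to 508.5 in transgenic libraries. None of the 20 markers was at 0 in the table. The part of this in the class I values was not tested, and in whole tissue more cells of a type and more RNA per cell cannot be told apart. Of 16 endothelial markers, 1 rose and 7 fell with age in Cck-/-, and in transgenic libraries limma called 0 (2 of 16 with an unadjusted p under 0.05), with summed levels from 190 to 254 FPKM over all 6 groups. Of 12 oligodendrocyte markers, 10 fell with age in Cck-/-, and 8 fell and 1 rose in transgenic libraries. Their summed level ran from 5190 to 6275 FPKM at week 5 and from 2112 to 2755 at week 28 in Cck-/-, and from 4127 to 4248 and from 2949 to 3401 in transgenic libraries. Of 12 astrocyte markers, 2 rose and 2 fell in Cck-/-, and 7 rose and 4 fell in transgenic libraries. The summed level of 12 choroid plexus markers varied within groups, from 27.8 to 2815 FPKM among transgenic libraries of week 5 alone. The part of these lists in the class I values was not tested. The 13 lymphocyte genes in the table, among them Cd3e and Cd4, stayed below 1 FPKM in every library, the highest being Cd79a at 0.878. The 11 class I receptor genes in the table, such as Cd8a and Pirb, also stayed below 1 FPKM.

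Between the genotypes at the same age, few of the class I genes differed. At week 12, 0 of 10 passed (1.36% of all genes did, in either direction; by unadjusted p under 0.05, 1 of 10, H2-D1). At week 28, 1 of 10 passed, H2-D1, which was lower in transgenic libraries, where 4.54% of all genes were higher and 6.13% lower. Its 3 transgenic values of 62.8, 77.1 and 65.7 FPKM all lay below the Cck-/- values of 82.3, 94.3 and 89.3. The difference was -0.37 (log2, SE 0.10, adjusted p = 0.0322). Over the mean of weeks 12 and 28 it was -0.32 (SE 0.073, adjusted p = 0.0089), where 6.42% of all genes were lower. The week 28 call alone was lost without replicate 2 (adjusted p = 0.127) or replicate 3 (0.0784) of Cck-/- week 28, without replicate 1 (0.144) or replicate 3 (0.0658) of transgenic week 28. It was also lost with no filter, with quantile normalization, with only the compared groups and without the 3 libraries lowest in choroid plexus genes (adjusted p from 0.0501 to 0.0959). The mean over weeks 12 and 28 kept its call under every setting run, with adjusted p up to 0.029. H2-L, which shares its place in the table with H2-D1, was at 2.28 to 4.67 FPKM, so that the sum of both differed at week 28 by -0.37 (adjusted p = 0.0361).

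None of the remaining 9 genes passed at week 28, and the estimates of 7 of them were above 0 by more than their SE. These were 0.24 (SE 0.16) for B2m, 0.33 (SE 0.22) for H2-K1, 0.27 (SE 0.14) for Tap1, 0.38 (SE 0.21) for Tap2, 0.23 (SE 0.11) for Tapbp, 0.38 (SE 0.20) for Psmb8 and 0.32 (SE 0.20) for Psmb9, with adjusted p from 0.225 to 0.378. H2-T23 (0.07) and H2-T9 (-0.01) were close to 0. The groups did not overlap for 2 of the 10, H2-D1 and Tap2, where they did not for 26.1% of all genes. Tap2 had 6.43, 6.04 and 6.02 FPKM in Cck-/- and 7.19, 12.1 and 6.58 in transgenic libraries. Microglial markers differed in the same comparison: 10 of 19 were higher in transgenic libraries and 0 lower, Trem2 by 1.04 (SE 0.21, adjusted p = 0.00503). All 14 Purkinje cell markers were lower, and their summed level was 1222 to 2363 FPKM against 3811 to 4102. Of the 12 astrocyte markers 3 were higher and 4 lower, and of the 12 oligodendrocyte markers 5 were higher and 0 lower. The part of these lists in the H2-D1 difference was not tested. No class I gene passed the test of whether the genotype effect changed from week 12 to week 28, nor did any gene of the table (0 of 13487; 1365 had an unadjusted p under 0.05, none of the 10 among them).

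**Figure D3:**
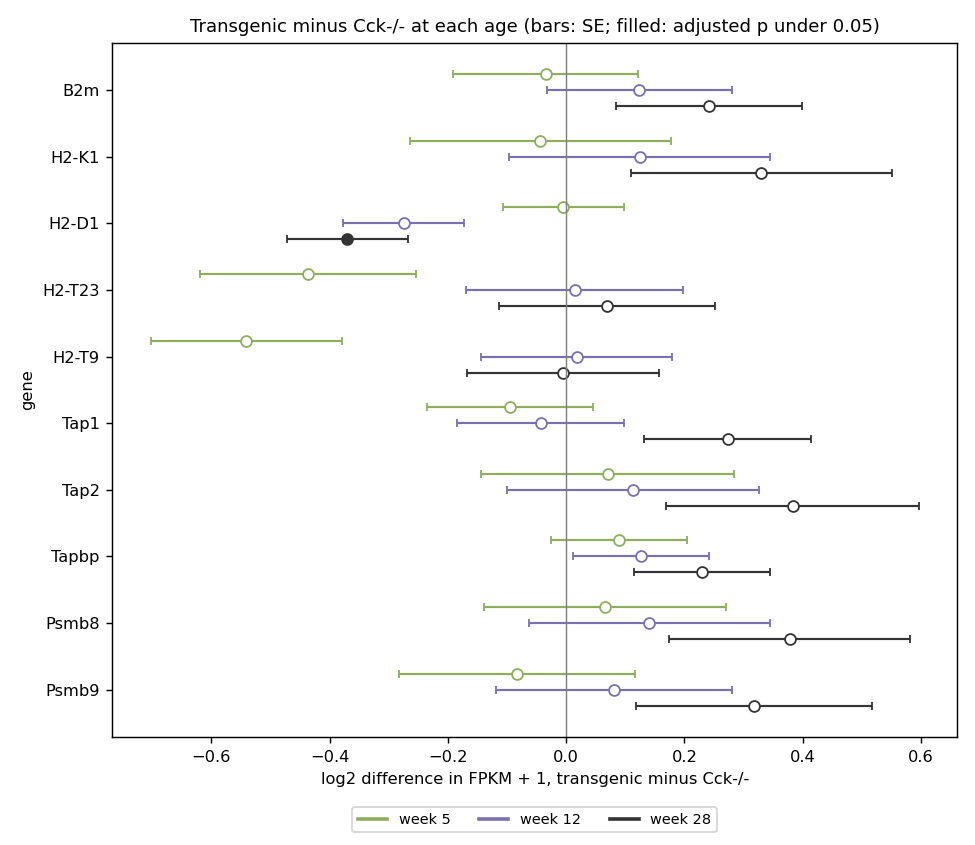
Log2 difference in FPKM + 1 between transgenic and Cck-/- libraries (horizontal axis) of the 10 genes at weeks 5, 12 and 28, with bars for the SE and filled points for adjusted p under 0.05. The 1 filled point is H2-D1 at week 28, at -0.37. The points of H2-T23 and H2-T9 at week 5, at -0.44 and -0.54, lie left of 0 but did not pass.

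The classical heavy chains may also be set against each other within each library, as a description with no test. H2-K1 stood at 18.5 ± 2.10% of H2-D1 (FPKM ratio, SD, n = 3) in Cck-/- libraries at week 5, and at 15.4 to 20.6% in the 3 transgenic libraries. At week 12 the ratios were 26.7 ± 3.61% and 35.8 ± 7.89%. At week 28 the Cck-/- ratio was 28.8 ± 7.21%, with a highest library of 36.4%, and the transgenic mean was 47.1%, with libraries from 36.3 to 56.3%, so that the groups overlapped.

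The catalytic subunits of the immunoproteasome stayed far below the constitutive subunits that they replace. Psmb8 was at 1.55 ± 0.144% of Psmb5 (FPKM ratio, SD, n = 3) in Cck-/- libraries at week 5 and at 3.28 ± 0.648% at week 28, against 1.68 ± 0.216% and 5.26 ± 1.27% in transgenic libraries. Psmb9 was at 1.49 ± 0.0943% and 2.64 ± 0.688% of Psmb6 in Cck-/- and at 1.34 ± 0.0977% and 3.92 ± 1.06% in transgenic libraries. Psmb10, the remaining inducible subunit, was nearer to its counterpart Psmb7, at 6.75 ± 0.212% and 9.16 ± 0.429%, and at 7.40 ± 0.251% and 9.79 ± 1.47%. Psmb10 rose with age by 0.29 (SE 0.10, adjusted p = 0.0395) in Cck-/-, and its change in transgenic libraries was 0.18 (SE 0.10, adjusted p = 0.189). Of 14 constitutive subunits none rose from week 5 to week 28. In Cck-/- 2 fell, Psma7 (-0.16) and Psma5 (-0.16), and in transgenic libraries 5 fell, among them Psmb5 (-0.27, SE 0.092, adjusted p = 0.0353) and Psmb7 (-0.20, SE 0.062, adjusted p = 0.0193).

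**Figure D4:**
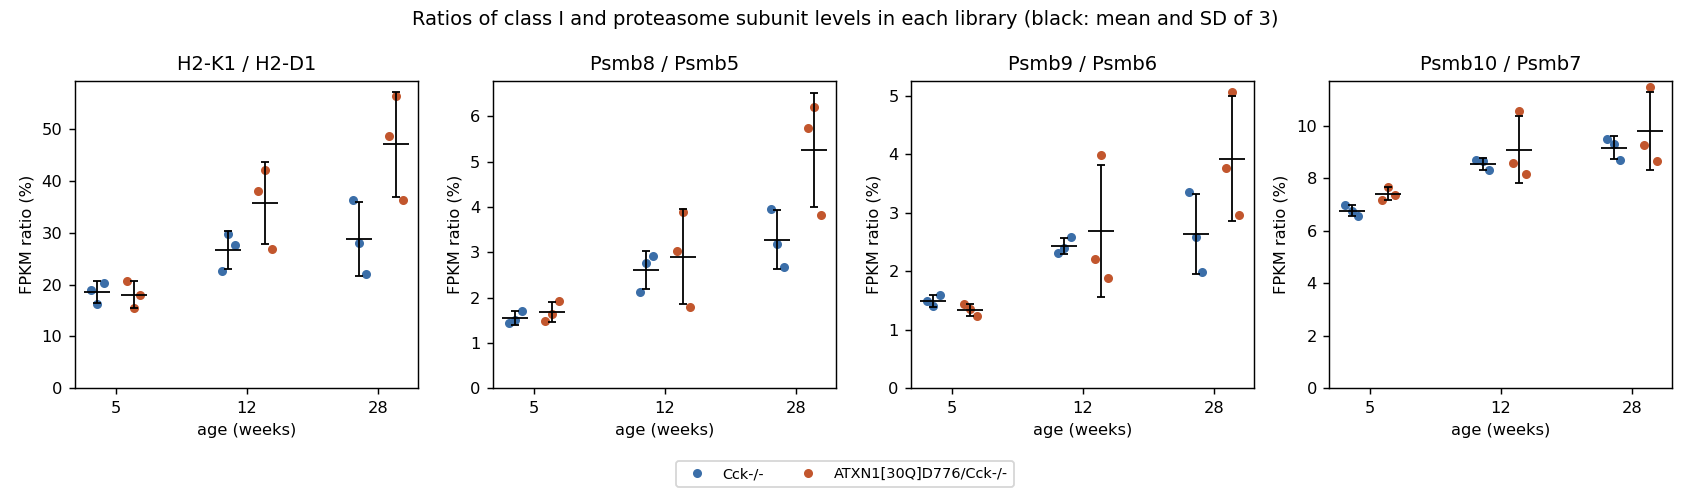
FPKM ratios in percent (vertical axes, from 0) of H2-K1 to H2-D1 and of 3 immunoproteasome subunits to their constitutive counterparts in each library, by age in weeks, Cck-/- in blue and transgenic in orange, with black bars for the mean and SD of 3. Psmb8 reaches 5.26% of Psmb5 and H2-K1 47.1% of H2-D1 in transgenic libraries at week 28.

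At week 5 the transgenic libraries stood apart in some genes of the T region, the far part of the complex that holds H2-T23 and H2-T9. No class I gene of the 10 passed in the genotype comparison at week 5 (7.67% of all genes did, in either direction; 2 of 10 had an unadjusted p under 0.05, H2-T23 and H2-T9). H2-T9 had 5.50, 6.48 and 5.02 FPKM in Cck-/- and 4.53, 2.77 and 3.56 in transgenic libraries, and the groups did not overlap. Its difference was -0.54 (SE 0.16, adjusted p = 0.0546). H2-T23 had 6.05, 5.35 and 6.60 FPKM in Cck-/- and 4.73, 3.62 and 4.19 in transgenic libraries, again without overlap, a difference of -0.44 (SE 0.18, adjusted p = 0.169). Groups that did not overlap were thus found for 2 of the 10, and for 31.2% of all genes tested. The 3 transgenic libraries of week 5 held the lowest values of the 18 for both genes. H2-T23 has the same place as A930015D03Rik and H2-T24, which were not summed with it. Their week 5 means were 3.40 and 2.78 FPKM in Cck-/- and 6.465 and 2.14 FPKM in transgenic libraries. How reads were divided between H2-T23 and this pair was not tested. H2-T9 has the same place in the table as H2-T22, so their reads may be split between them. With both summed, the difference was -0.44 (SE 0.12) and passed (adjusted p = 0.0398).

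Other genes of this region were chosen after their values were seen, and not all of them set these 3 libraries apart. H2-T22 had 3.095 to 4.70 FPKM in these 3 and 3.91 to 7.11 in the other 15 libraries. H2-T24 (1.63 to 2.66 and 2.17 to 3.53) and A930015D03Rik (5.52 to 8.35 and 2.97 to 6.63) overlapped as well. Gm8801, a predicted gene, had 1.21, 2.23 and 2.45 FPKM in these 3 libraries and at most 0.0314 in the other 15 libraries. H2-T10, a nonclassical class I gene, had 4.36 and 3.99 FPKM in replicates 2 and 3, while replicate 1 had 0.395 and the other 15 libraries had 0.252 to 0.934. H2-Bl, another class I gene, had 14.3 FPKM in replicate 1 and 1.89 and 1.53 in replicates 2 and 3, against 1.29 to 3.11 elsewhere. Replicate 1 thus differed from replicates 2 and 3 in both H2-Bl and H2-T10. The class I genes differ in number and sequence between mouse strains, and the reads were aligned to a genome made from another strain than FVB. Whether the week 5 transgenic mice differed from the others in this region was not tested, and the same libraries were those with high Cck. The changes of H2-T23 and H2-T9 with age in transgenic libraries start from these values.

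**Figure D5:**
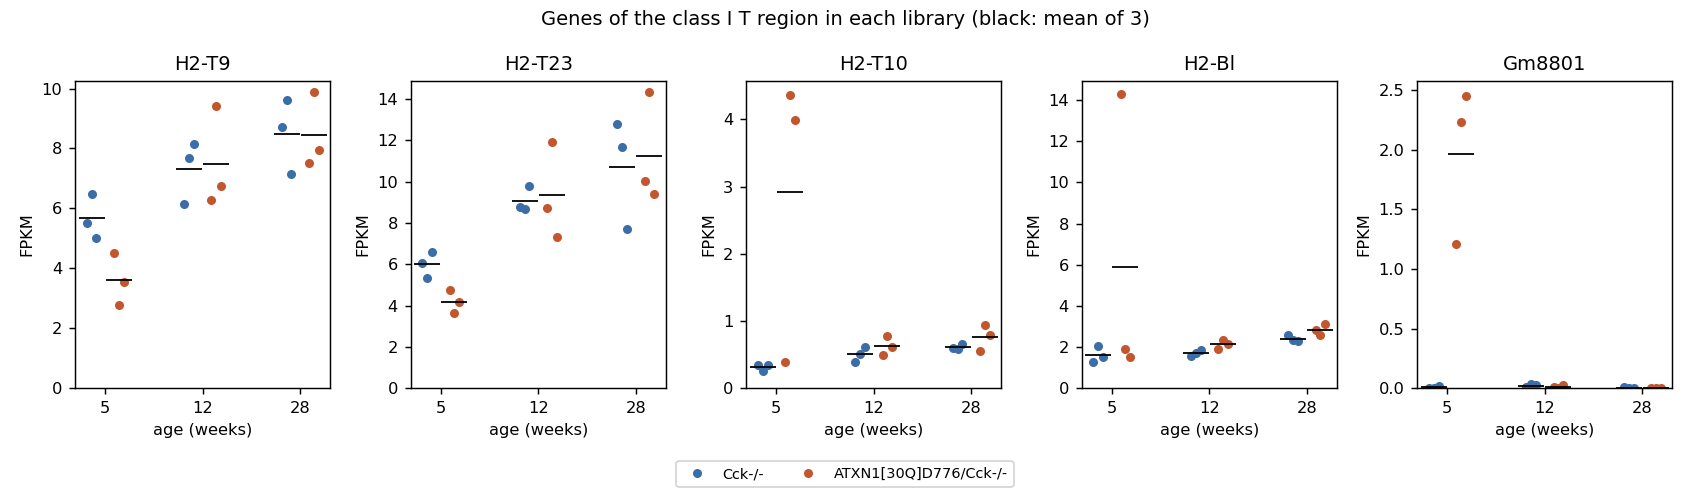
FPKM (vertical axes, from 0) of H2-T9, H2-T23, H2-T10, H2-Bl and Gm8801 in each library by age in weeks, Cck-/- in blue and transgenic in orange, with a black line for the mean of 3. The transgenic libraries of week 5 are the lowest in H2-T9 and H2-T23, 2 of them are high in H2-T10, 1 in H2-Bl and all 3 in Gm8801.

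Near-identical copies could affect several values. In GENCODE M21 transcripts, 9.63% of the distinct stretches of 50 bases of H2-K1 also occur in another gene, 12.8% of those of H2-D1 and 14.5% of those of H2-T23. Tapbp shares 23.2%, mostly with the gene model Gm19412, Psmb8 11.9%, mostly with Gm20496, and Tap2 11.6%, mostly with Gm15821. Tap1 shares 3.33% and Psmb9 4.19%, mostly with each other, and B2m shares none. H2-T9 has no entry in that annotation. The sources used here do not say how such reads were divided.

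Further class I genes rose with age. Of 14 tested, 7 rose from week 5 to week 28 in Cck-/- and 11 in transgenic cerebellum, and none fell. Of all genes tested, 16% and 17% rose and 17.7% and 19.9% fell. H2-Q4, a nonclassical gene of the Q region, went from 2.81 ± 0.292 to 6.04 ± 1.34 FPKM (SD, n = 3) in Cck-/- and from 3.79 ± 0.432 to 7.82 ± 2.19 in transgenic libraries. H2-Q7, which encodes Qa-2, went from 0.0824 ± 0.0508 to 1.15 ± 0.34 FPKM and from 0.276 ± 0.0281 to 1.59 ± 0.821. H2-Q7 and H2-Q5 stayed below 1 FPKM in every week 5 library (at most 0.301 and 0.723). Both reached the filter through libraries of later ages alone, so their rises add no support to these counts. H2-M3, which binds bacterial N-formyl peptides, changed by 0.55 (SE 0.17, adjusted p = 0.0198) and 0.88 (SE 0.17, adjusted p = 0.00118).

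Other genes of the pathway are counted beside the shares of all genes, of which 16% rose and 17.7% fell in Cck-/- and 17% rose and 19.9% fell in transgenic cerebellum. Of 16 tested genes of loading, trimming and regulation, 3 rose and 2 fell with age in Cck-/-, and 5 rose and 4 fell in transgenic libraries. Rfx5, a factor that binds the X box of class I and class II promoters, rose by 0.34 and 0.39 (SE 0.055 each), and Tapbpl, a relative of tapasin, by 0.47 and 0.44 (SE 0.11 each). Sec61a1, a subunit of the channel into the endoplasmic reticulum, fell by 0.27 and 0.30 (SE 0.045 each). It was also lower in transgenic libraries at every age, by -0.35, -0.24 and -0.38 (adjusted p = 0.000287, 0.0124 and 5.54e-05). Nlrc5, the transactivator of class I genes, was below the filter in all 18 libraries. Its mean was 0.0572 ± 0.0289 FPKM (SD, n = 3) at week 5 and 0.201 ± 0.0707 at week 28 in Cck-/-, and 0.0482 ± 0.0158 and 0.302 ± 0.136 in transgenic libraries.

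All 6 class II genes tested rose with age in transgenic cerebellum and 5 of 6 in Cck-/-, where 17% and 16% of all genes rose. Among them, H2-DMb1 had at most 0.936 FPKM at week 5 and reached the filter through later libraries alone, so its rise adds no support. H2-Aa, a class II alpha chain, changed by 1.16 (SE 0.30, adjusted p = 0.00833) in Cck-/- and 1.04 (SE 0.30, adjusted p = 0.0144) in transgenic libraries. Of 39 interferon-stimulated and interferon signalling genes, 11 rose and 2 fell in Cck-/- and 26 rose and 1 fell in transgenic cerebellum, beside 16% and 17% of all genes that rose. Irf1, a factor that drives class I genes after interferon, rose by 0.49 (SE 0.12, adjusted p = 0.00492) and 0.71 (SE 0.12, adjusted p = 0.000396). Ifngr2, a chain of the receptor for interferon gamma, went the other way, by -0.42 and -0.64 (SE 0.085 each), and was lower in transgenic libraries at week 28 by -0.52 (adjusted p = 0.00104). It was the 1 of the 39 that passed between genotypes at week 28.

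The neighbours on chromosome 17 are a description. Of all genes, 16% rose and 17.7% fell in Cck-/-, and 17% rose and 19.9% fell in transgenic cerebellum. Of 91 tested genes that lie between Tapbp and H2-T9 and are not among the 10, 19 rose and 14 fell in Cck-/- from week 5 to week 28, with a median of 0.00. In transgenic cerebellum 25 rose and 13 fell, with a median of 0.04. Only the 10 were left out. Other class I genes of this stretch, H2-L and H2-T22 among them, and class II genes are thus counted again here.

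Pearson correlations of log2 values between the 10 genes over the 18 libraries ran from 0.357 to 0.981, and those of H2-D1 with the other 9 from 0.357 to 0.516. The genes most like B2m among all genes tested were H2-K1 (r = 0.981) and Psmb8 (0.974). Tap1 was most like the interferon-induced GTPase Irgm1 (0.979), and Tap2 most like Tapbp (0.974). Those most like H2-D1 were Cmpk2 (0.833), Pigk (0.824) and Dnaja4 (0.819). With group means removed, B2m was most like Psmb8 (0.969) and Ctss (0.954), Tapbp like Irgm1 (0.981), and H2-D1 like Grasp (0.914), Eif4a3 (0.907) and Snrpa (0.902). These are descriptions over 18 libraries that share ages, genotypes and normalization.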

How the data were processed

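RNA of 18 cerebellar samples was made into Illumina TruSeq libraries after TRIzol and RNeasy extraction, per the labels' protocols. The authors deposited FPKM per gene symbol, in a table named as Cuffnorm output with a value and a status column per library, per the file headers. The submitters' processing notes name TopHat2 2.0.11, Cufflinks 2.2.1 and the build mm10. Annotation, strand and normalization settings were not given in the sources used here. Every value of the 10 genes had the status OK. Libraries were grouped by labelled genotype and age. Tests took genes that reached 1 FPKM in 3 or more libraries and ran on log2(FPKM + 1) with limma 3.58.1 in R 4.3.3 (mean-variance trend, 6 group means, 12 residual degrees of freedom, two-sided, Benjamini-Hochberg over all genes tested in a comparison, call at adjusted p under 0.05), in 12 comparisons. The fit was tested on simulated data. The 10 genes, the gene lists and the tests were chosen with earlier results of these data known. All 10 are named in every comparison. Of other lists, up to 4 called members with the smallest p are named, or the 2 with the smallest p where none was called, and some of these were left out. Proteasome counterparts, the regulators Nlrc5 and Irf1, and Cck, Atxn1 and Xist were named as checks or ratios. Similar genes are those with the highest correlation over libraries, predicted genes left out. Promoter windows are from RefSeq (GRCm38.p6). Alternatives changed the pseudocount, filter, scaling, weights, covariates, block and libraries. After seeing the data, 3 were added. They left out both high transgenic libraries, left out the 3 libraries of mixed sex signal, and summed genes that share a place. Only H2-D1 with H2-L and H2-T9 with H2-T22 were summed. Sequences were aligned with Biopython 1.88 and figures drawn with matplotlib 3.10.9 in Python 3.11.15.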

Additional observations from a re-analysis of the deposited data

Results flagged for a closer look

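Cck and Kdr were listed because their genotype effects differed between week 5 and week 28 by the test of the interaction in limma. Of all 13487 genes tested, 492 (3.65%) passed this test in either direction, so passing it does not set Cck and Kdr apart. The genotype effect on Cck was smaller at week 28 than at week 5 by a log2 difference of -1.83 (SE 0.32, adjusted p = 0.0105), from 98.1 against 20.8 FPKM at week 5 to 6.51 against 4.97 at week 28. Kdr, an endothelial receptor, gave 0.59 (SE 0.13, adjusted p = 0.0246). Its week 5 means were 4.66 FPKM in Cck-/- and 2.43 in transgenic libraries, and its week 28 means 2.58 and 2.26. Both differences share the transgenic libraries of week 5.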

How the results depend on the processing

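No alternative reversed a called change of the 10 genes. Counts of the 10 genes that passed from week 5 to week 28 were 7 to 10 in Cck-/- and 6 to 9 in transgenic libraries over 14 other settings, and 5 to 10 and 9 to 9 when 1 library was left out. Psmb8, Psmb9 and Tap1 were not tested where a mean FPKM of at least 5 was asked for. From week 5 to week 12, the Cck-/- count of 3 was 6 with library weights, with only the compared groups and without both high transgenic libraries, and 0 to 4 without 1 library. The transgenic count of 4 was 0 with only the compared groups, without the 3 libraries lowest in choroid plexus genes and without both high transgenic libraries, 1 with choroid plexus level as covariate and without the 3 libraries of mixed sex signal (Xist and Y-linked RNA), 2 with no filter and with Xist as covariate, and 0 to 4 without 1 library. From week 12 to week 28 the transgenic count of 0 was 1 with quantile normalization, with library weights and without the 3 libraries of mixed sex signal, and 0 to 4 without 1 library (4 without replicate 2 of transgenic week 12). The genotype count at week 5, 0, was 1 with a pseudocount of 0.1, only the compared groups, without both high transgenic libraries, without the 3 libraries of mixed sex signal and with genes sharing a place summed, 2 with library weights, and 0 to 1 without 1 library. At week 12 the count of 0 was 1 without the 3 libraries of mixed sex signal. At week 28 the count of 1 was 0 with no filter, quantile normalization, only the compared groups and without the 3 libraries lowest in choroid plexus genes, 2 with library weights, and 0 to 1 without 1 library. The mean of weeks 12 and 28 had 2, and the interaction of weeks 28 and 5 had 1, with library weights. The cause of these shifts was not tested, except that fewer libraries or groups leave fewer degrees of freedom.

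The labels do not say whether replicate numbers pair the libraries. Same-numbered libraries of 1 age correlated from -0.16 to 0.435 in their deviations, which cannot decide it with 3 libraries a group. With the replicate block, the counts of the 10 genes were the same in all 12 comparisons, with 9 in each genotype from week 5 to week 28, and H2-D1 at week 28 had an adjusted p of 0.0125.

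Counts over all genes moved by over 1.5 times in places: at week 28 from 1439 to between 337 (only the compared groups) and 5835 (library weights), at week 5 from 1035 to between 309 and 3112, at week 12 from 183 to between 59 and 323, for the mean of weeks 12 and 28 from 1533 to between 772 and 3288, and for the interaction of weeks 28 and 5 from 492 to between 65 and 4325, and of weeks 28 and 12 from 0 to 2344. From week 5 to 12, from 12 to 28 and from 5 to 28 they ran from 955 to 3907, 140 to 4244 and 3551 to 7706 in Cck-/- (1595, 1301 and 4551 as reported) and from 28 to 249, 890 to 5128 and 2587 to 6557 in transgenic libraries (161, 3216 and 4979). With 3 libraries a group and no counts, small differences of low genes such as Tap1 are not resolved.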
